A study of Mus musculus with 16 samples.

Results

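The fragile X protein family and 4 of its binding partners were followed at the RNA level in the medial prefrontal cortex of mice lacking 1 functional copy of Arid1b, with or without early fluoxetine. The members were set by name: Fmr1, Fxr1 and Fxr2 of the family, and Cyfip1, Cyfip2, Caprin1 and Eif4e among the partners. All 7 symbols matched 1 Ensembl identifier each, out of 18424 genes in the table. The mice were 16 males of the C57BL/6N strain, sampled at postnatal day 120, in 4 groups of 4. WT-Veh mice were wild type and had been nursed by dams drinking 0.2% saccharin water. WT-Flx mice were wild type, and their dams drank the same water with fluoxetine, a selective serotonin reuptake inhibitor, at 0.1 mg per ml. HT-Veh and HT-Flx mice were heterozygous for a protein-truncating Arid1b mutation, present in all tissues, and received vehicle or fluoxetine in the same way. Treatment ran from postnatal day 3 to day 21 through the milk, so the dose taken by each pup is not known, and all groups drank plain water afterwards. Arid1b encodes a subunit of a SWI/SNF chromatin remodelling complex.

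FMRP, the protein of Fmr1, binds messenger RNAs in neurons and represses the translation of many of them at synapses, and its loss causes fragile X syndrome, an inherited form of intellectual disability and autism. FXR1P and FXR2P, encoded by Fxr1 and Fxr2, are its paralogs and can bind it. CYFIP1 binds FMRP and the cap-binding protein eIF4E and thereby holds back translation initiation, and both CYFIP proteins are also subunits of the WAVE complex, which drives actin branching downstream of Rac1. Caprin1 is an RNA-granule protein that associates with FMRP.

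Values are normalized read counts, that is, estimated reads per gene divided by a normalization factor of the authors, and how deeply each sample was sequenced is unknown. Column totals lay between 92.8% and 104% of their mean. Among vehicle mice, Arid1b was 2368 ± 432 for WT-Veh against 1795 ± 160 for HT-Veh, and among fluoxetine mice it was 2159 ± 233 for WT-Flx against 1636 ± 61.0 for HT-Flx (SD, n = 4). With both treatments combined it was lower in HT by 0.39 on the log2 scale (limma, adjusted p = 0.124), and single mice overlapped: WT-Veh replicate 1, at 1787, and WT-Flx replicate 1, at 1902, lay below the highest HT value of 2005. The samples also differed in their content of olfactory bulb transcripts, tissue that adjoins the frontal pole. A bulb score, the mean log2(value + 1) of 8 bulb marker genes such as Eomes and Tbx21, was 7.63 to 9.79 in 5 mice, which are HT-Veh replicate 4, WT-Veh replicate 1 and all WT-Flx mice but replicate 3. These are called bulb-rich below. It was 4.82 to 5.83 in the other 11 mice. The summed bulb marker level ranged over 1115 to 1308 for HT-Flx, 1206 to 4202 for HT-Veh, 1382 to 10050 for WT-Flx and 1097 to 12229 for WT-Veh, and 1 of the 8 markers, Eomes, was listed at 0 in a sample. The 5 cortical glutamatergic neuron markers were present in every sample, with summed levels from 112639 to 203564. Other summed markers also varied between mice, from 2599 to 10219 for striatum, 15935 to 32344 for GABAergic neurons and 57706 to 104432 for oligodendrocytes. In bulk tissue, fewer cells of a type and less RNA per cell cannot be told apart.

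All 7 members were expressed in this cortex, and their levels differed widely between genes. Set per kilobase of the longest protein-coding transcript, to allow for transcript length, Cyfip2 was highest at a mean of 4668 normalized read counts per kb over the 16 mice. Fxr2 followed at 1093 and Caprin1 at 844. Eif4e, at 553, Fmr1, at 503, and Fxr1, at 473, lay close together, and Cyfip1 was lowest at 321. With all exonic bases of a gene as its length, the order was the same but the distances were not: Cyfip2 was at 4376 and Cyfip1 at 173 per kb, and Eif4e, at 459, lay further above Fmr1, at 248, and Fxr1, at 218. Within the family, Fxr2 made up 52.7% ± 3.20 of the summed level per kb, Fmr1 24.4% ± 2.10 and Fxr1 22.9% ± 1.44 (SD, n = 16), and with all exonic bases these shares were 64.7%, 18.8% and 16.5%. Cyfip2 exceeded its paralog Cyfip1 by a mean ratio of 14.6 ± 1.92 per kb (SD, n = 16), with single mice from 9.98 to 18.1. On all exonic bases the mean ratio was 25.3 ± 3.34, so its size depends on the length used.

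Inside groups 5 of the members varied less from mouse to mouse than the median gene with a mean of at least 1000, and Eif4e and Cyfip2 varied more. The within-group SD was 0.098 on the log2 scale for Fxr1, 0.10 for Cyfip1, 0.12 for Caprin1, 0.12 for Fmr1 and 0.12 for Fxr2, which placed these 5 genes between the 16.1 and the 33.6 percentile of the 5622 genes with a mean of at least 1000. Eif4e, at 0.17, lay at the 64.6 percentile. Cyfip2 was the most variable member, with an SD of 0.21 at the 80.3 percentile, against a median of 0.15 over those genes.

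**Figure D1:**
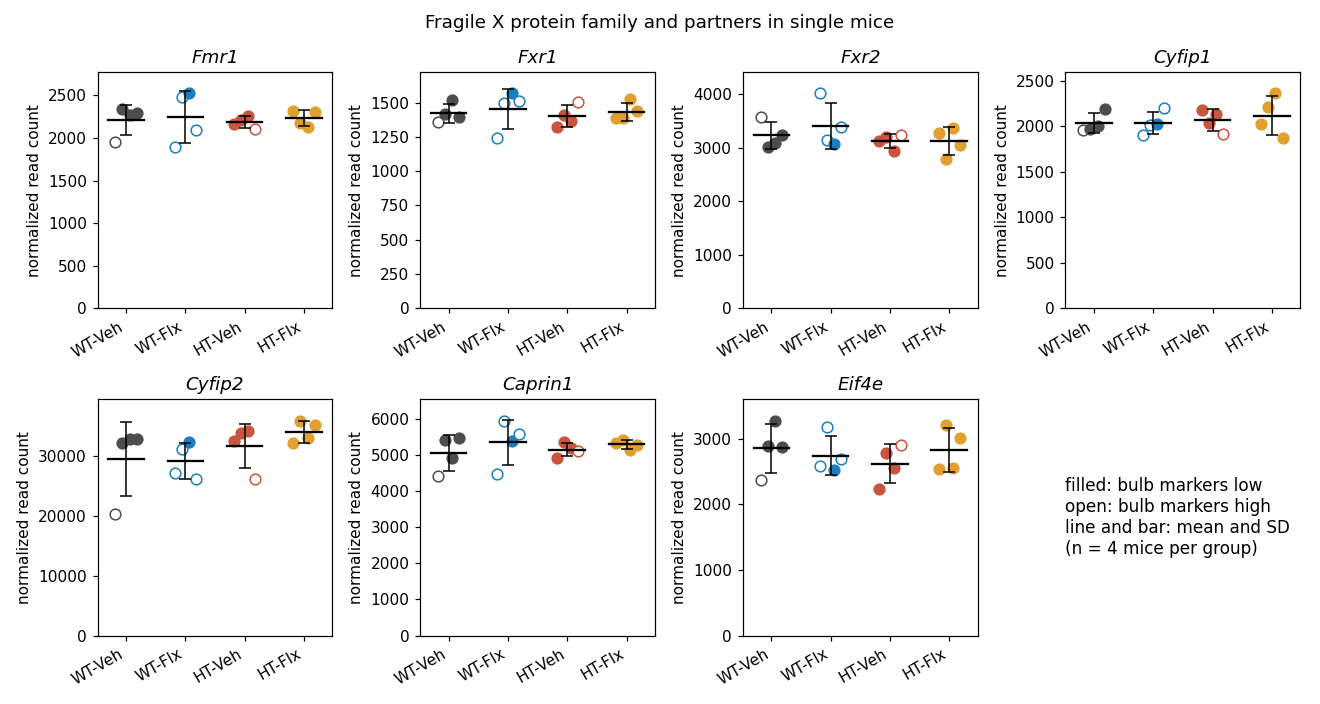
Normalized read counts (vertical axis, from 0) of each member in single mice of the 4 groups (horizontal axis). Points are mice, open where olfactory bulb markers were high, and black lines and bars are the mean and SD of 4 mice. Groups overlap for every member, and the 5 open points of Cyfip2 are the 5 lowest of its 16 values, from 20235 to 31135.

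Fmr1 (ENSMUSG00000000838) lies on chrX:68678541-68717963 on the plus strand (GRCm38), Fxr1 (ENSMUSG00000027680) on chr3:34019943-34070322 and Fxr2 (ENSMUSG00000018765) on chr11:69632990-69653297, both also on the plus strand. Of all pairs of members, Fmr1 and Fxr2 had the most negative correlation over the 16 mice, a relation that did not pass its test and is described further on, so the windows of this pair are shown. They are the 250 bases before a RefSeq start on GRCm38.p6, plus strand, at chrX:68678291-68678540 (Fmr1) and chr11:69632721-69632970 (Fxr2). RefSeq starts can differ from the GENCODE gene starts given above, and the Fxr2 window ends short of that start. Capitals mark matches on either strand to an E-box (CACGTG), to the core letters of the NRF1 site (GCATGCGC) and to a GC box (GGGCGG), and matches may overlap.
Fmr1: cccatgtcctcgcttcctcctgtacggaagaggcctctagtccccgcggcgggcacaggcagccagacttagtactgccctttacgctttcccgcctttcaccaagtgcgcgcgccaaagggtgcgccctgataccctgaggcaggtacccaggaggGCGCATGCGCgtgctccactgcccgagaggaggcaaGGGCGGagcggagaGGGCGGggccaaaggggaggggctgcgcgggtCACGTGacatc
Fxr2: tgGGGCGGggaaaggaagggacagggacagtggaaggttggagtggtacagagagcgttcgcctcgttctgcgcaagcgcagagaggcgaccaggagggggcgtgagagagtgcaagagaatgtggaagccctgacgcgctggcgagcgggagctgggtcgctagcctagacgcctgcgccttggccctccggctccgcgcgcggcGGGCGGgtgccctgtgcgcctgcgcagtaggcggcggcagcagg
Both windows are rich in CpG, with 21 and 26 CpG dinucleotides in the order shown and a GC content of 67.2% and 69.6%, against medians of 6 and 52.4% over 32817 RefSeq windows of the same length. The Fmr1 window holds 1 E-box and an overlapping pair of NRF1 matches on opposite strands, and the Fxr2 window holds neither. An E-box was found in 6.02% of all windows, the NRF1 letters in 2.25% and a GC box in 32.7%. Each window has 2 GC box matches. These are matches of letters, not measured binding. RefSeq windows were given for 6 of the 7 members.

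Fmr1 was at nearly the same level in all 4 groups. Its values were 1955, 2336, 2266 and 2298 in the WT-Veh mice (replicates 1 to 4), and 2166, 2213, 2259 and 2105 in the HT-Veh mice. The fluoxetine mice had 1894, 2486, 2523 and 2087 in WT-Flx and 2318, 2175, 2124 and 2304 in HT-Flx. The groups overlapped throughout, and the lowest values of the 16 belonged to WT-Flx replicate 1 and WT-Veh replicate 1. The group means ran from 2186 ± 65.9 in HT-Veh to 2247 ± 307 in WT-Flx (SD, n = 4), and neighbours in that order overlapped. The difference of HT-Veh from WT-Veh was -0.015 on the log2 scale, with a 95% confidence interval of -0.18 to 0.14 (limma, adjusted p = 0.979). With both treatments combined, the genotype difference was -0.0085 (-0.14 to 0.13, limma, adjusted p = 0.965), so changes of Fmr1 RNA beyond -9.39% or 9.07% lay outside the interval. Among the 11 mice that were not bulb-rich, that difference was -0.12, where WT-Flx was represented by 1 mouse.

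Fxr1 showed the same flat profile. Its values were 1361, 1414, 1517 and 1393 in WT-Veh, 1321, 1411, 1363 and 1506 in HT-Veh, 1240, 1496, 1567 and 1510 in WT-Flx, and 1387, 1385, 1524 and 1436 in HT-Flx. The lowest of these was again WT-Flx replicate 1, and no group stood apart. Group means differed by at most 3.79%, and the genotype difference over both treatments was -0.019 (95% confidence interval -0.14 to 0.10, limma, adjusted p = 0.910).

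Fxr2, the most abundant paralog per kb, was 3568, 3020, 3090 and 3245 in WT-Veh and 3137, 3208, 2947 and 3246 in HT-Veh. It was 4018, 3152, 3074 and 3398 in WT-Flx and 3277, 2791, 3375 and 3059 in HT-Flx. Here WT-Flx replicate 1 and WT-Veh replicate 1, the mice with the least Fmr1, had the highest values of the 16. Both are bulb-rich, and the bulb-rich mice as a set had Fxr2 levels of 3152 to 4018, against 2791 to 3375 in the others. The genotype difference over both treatments was -0.082 (-0.21 to 0.051, limma, adjusted p = 0.596). It was 0.0052 among the 11 other mice.

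Because the paralogs can bind each other, their ratio was also set out. Per kb, Fmr1 stood to Fxr1 at 1.06 ± 0.0718 over all 16 mice, with group means from 1.06 ± 0.0834 in WT-Flx to 1.07 ± 0.0810 in HT-Veh. Fmr1 to Fxr2 varied more, from 0.315 in WT-Flx replicate 1 to 0.549 in WT-Flx replicate 3. Its group means were 0.451 ± 0.109 (WT-Flx), 0.462 ± 0.0662 (WT-Veh), 0.468 ± 0.0329 (HT-Veh) and 0.480 ± 0.0439 (HT-Flx; SD, n = 4), so mice of 1 group differed more than the groups did.

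Cyfip1 (ENSMUSG00000030447, chr7:55841745-55932602, plus strand) was measured at 1960, 1973, 2008 and 2196 in WT-Veh, 2186, 2035, 2142 and 1916 in HT-Veh, 1905, 2019, 2026 and 2201 in WT-Flx, and 2025, 2216, 2364 and 1873 in HT-Flx. Both the highest and the lowest of the 16 values came from HT-Flx mice. The genotype difference over both treatments was 0.039 (95% confidence interval -0.082 to 0.16, limma, adjusted p = 0.796) and the fluoxetine difference over both genotypes 0.016 (-0.10 to 0.14, limma, adjusted p = 1.00).

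Cyfip2 (ENSMUSG00000020340, chr11:46193850-46312859, minus strand), the dominant CYFIP gene of this tissue, had the largest difference of a member between any of the 4 pairs of groups compared. Its values were 20235, 32078, 32767 and 32882 in WT-Veh and 32495, 33788, 34184 and 26200 in HT-Veh. They were 27152, 31135, 32247 and 26120 in WT-Flx and 32064, 35873, 32949 and 35148 in HT-Flx. The group means rank HT-Flx (34008 ± 1796), HT-Veh (31667 ± 3715), WT-Veh (29490.5 ± 6180) and WT-Flx (29164 ± 2984; SD, n = 4), and each overlapped its neighbour in that order. HT-Flx exceeded WT-Flx by 0.23 on the log2 scale, or 16.9% (95% confidence interval 1.02% to 35.4%, limma, adjusted p = 0.454), which did not pass the threshold. The highest WT-Flx value, 32247, lay just above the lowest HT-Flx value, 32064. HT-Veh differed from WT-Veh by 0.12 (-0.24 to 0.48, limma, adjusted p = 0.928). Without WT-Veh replicate 1 that difference was -0.049.

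Cyfip2 was lower in the bulb-rich mice than in the others. In the 5 bulb-rich mice it was 20235 to 31135, below all of the other 11 mice, where it was 32064 to 35873, and the mean of the bulb-rich mice was lower by 21.5%. Such a separation downwards was seen for 260 of 17567 genes, or 1.48%. Of the members, this held for Cyfip2 alone. In HT-Flx against WT-Flx, the comparison with the largest Cyfip2 difference, all 8 bulb markers had lower values in HT-Flx with an unadjusted limma p under 0.05, by a median of -2.67 on the log2 scale, and 0 of 8 passed the adjusted threshold. With the bulb score as a covariate the Cyfip2 difference was 0.084 (SE 0.15, against 0.097 without the score, limma, adjusted p = 1.00). It was 0.075 without the bulb-rich mice, which left 1 WT-Flx mouse. With all 4 groups and the score in 1 fit, it was -0.071. In this comparison bulb content and genotype cannot be told apart, since all WT-Flx mice but replicate 3 and no HT-Flx mouse were bulb-rich. The genotype difference of Cyfip2 over both treatments was 0.17 (-0.030 to 0.38, limma, adjusted p = 0.477), and 0.0053 with the score as a covariate. Within the 11 mice with low bulb markers it was 0.057, where WT-Flx was represented by 1 mouse.

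**Figure D2:**
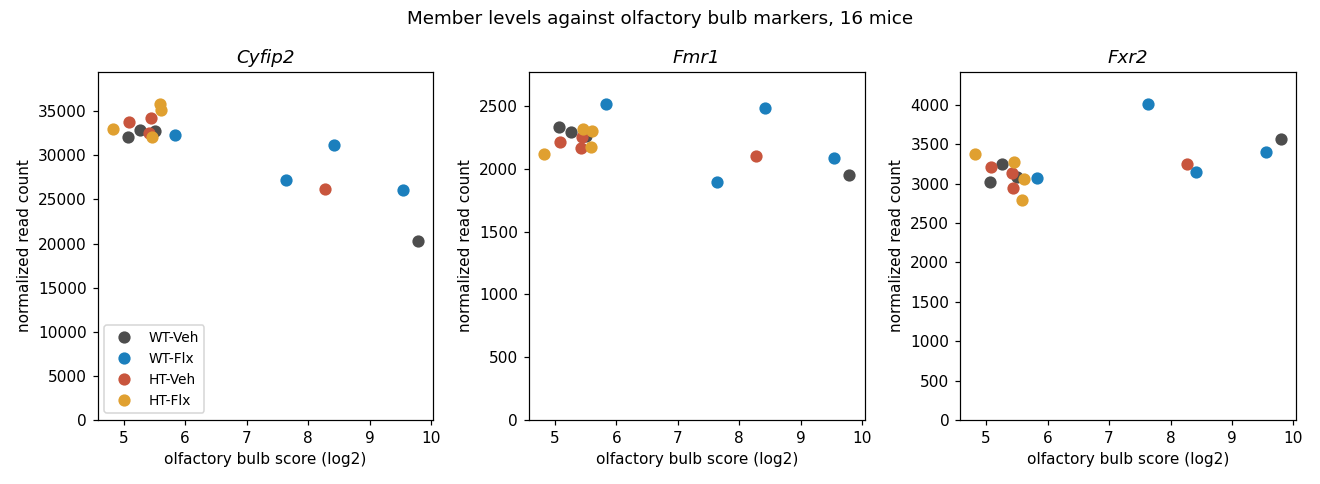
Normalized read counts of Cyfip2, Fmr1 and Fxr2 (vertical axes, from 0) against the olfactory bulb score (horizontal axes, mean log2(value + 1) of 8 markers), 1 point per mouse, coloured by group. The 11 mice with scores up to 5.83 have Cyfip2 values of at least 32064, and the 5 mice with scores from 7.63 lie below them, while Fmr1 and Fxr2 overlap between these sets.

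Caprin1 (ENSMUSG00000027184, chr2:103762941-103797649, minus strand) was 4417, 5419, 4915 and 5456 in WT-Veh, 4914, 5354, 5190 and 5111 in HT-Veh, 4462, 5949, 5379 and 5584 in WT-Flx, and 5332, 5423, 5139 and 5274 in HT-Flx. Its lowest values were those of WT-Veh replicate 1 and WT-Flx replicate 1. HT-Flx was the most even group, with a coefficient of variation of 2.25% against 11.9% in WT-Flx. The genotype difference over both treatments was 0.012 (95% confidence interval -0.12 to 0.14, limma, adjusted p = 0.951), and its sign turned under quantile normalization (-0.031), with the bulb score as a covariate (-0.020) and without the bulb-rich mice (-0.027).

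Eif4e (ENSMUSG00000028156, chr3:138526179-138559696, plus strand), which encodes the protein that recognises the messenger RNA cap, was 2376, 2884, 3274 and 2865 in WT-Veh, 2229, 2787, 2546 and 2903 in HT-Veh, 2577, 3170, 2523 and 2693 in WT-Flx, and 2533, 3211, 2554 and 3012 in HT-Flx. Every group spanned at least 647 normalized read counts, and no group lay apart. HT-Veh differed from WT-Veh by -0.12 (95% confidence interval -0.37 to 0.13, limma, adjusted p = 0.922), and by -0.26 without the bulb-rich mice (limma, adjusted p = 0.305). HT-Flx differed from HT-Veh by 0.11 (-0.11 to 0.33, limma, adjusted p = 1.00). The interaction, the fluoxetine difference in HT minus that in WT, was 0.16 (-0.17 to 0.50, limma, adjusted p = 0.998). It was 0.41 without the bulb-rich mice, where WT-Flx was represented by 1 mouse.

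Over all members, the question whether Arid1b haploinsufficiency or early fluoxetine altered the RNA of the fragile X family and its partners can be read from 7 comparisons. No member passed an adjusted p of 0.05 in any of them (limma, 0 of 7 each), and Cyfip2 in HT-Flx against WT-Flx was the single case with an unadjusted p under 0.05. Without the bulb-rich mice, 1 of 7 members in HT-Veh against WT-Veh had an unadjusted limma p under 0.05, which was Eif4e (-0.26). Of all 16508 genes tested in that fit, 1798 had one, and 0 of 7 members passed the adjusted threshold. Fits with WT-Flx keep 1 mouse of that group there, so effect sizes alone are given here. These were 0.075 for Cyfip2 in HT-Flx against WT-Flx and -0.25 for Eif4e in WT-Flx against WT-Veh, where it was -0.053 with all mice. They were 0.41 for the Eif4e interaction and -0.12 for Fmr1 for genotype over both treatments. With all mice, few genes of the whole table passed the adjusted threshold. In HT-Veh against WT-Veh, 0.0178% of the genes tested met the adjusted threshold, and an unadjusted p under 0.05 was reached by 4.88%, against 0 of 7 members for both. The respective shares were 0% and 3.07% in HT-Flx against HT-Veh, and 0% and 4.20% in WT-Flx against WT-Veh, again with 0 of 7 members. In HT-Flx against WT-Flx they were 0.0417% and 10.4%, with 0 and 1 of 7 members. For the interaction they were 0% and 4.29%, for genotype over both treatments 0.0569% and 11.7%, and for fluoxetine over both genotypes 0% and 3.23%, with 0 of 7 members each time. In none of the 28 member-by-comparison pairs of groups were the 4 mice of 1 group all above or all below those of the other. Over all genes tested, such a separation was found for 3.84% in HT-Veh against WT-Veh, 1.99% in HT-Flx against HT-Veh, 2.89% in WT-Flx against WT-Veh and 5.83% in HT-Flx against WT-Flx. These comparisons share groups and are not independent of each other.

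The intervals show how closely the differences were estimated. For Fmr1, Fxr1, Fxr2 and Cyfip1 in HT-Veh against WT-Veh, the 95% confidence intervals ran from at lowest -12.8% to at highest 13.1%. It was -9.42% to 15.1% for Caprin1, -22.5% to 9.11% for Eif4e and -15.1% to 39.6% for Cyfip2, the widest of the 7. In WT-Flx against WT-Veh the intervals of Fmr1 (-14.9% to 20.1%), Fxr1 (-11.9% to 17.9%), Fxr2 (-10.2% to 23.2%) and Caprin1 (-10.8% to 24.9%) were wider. That of Cyfip2 there was -21.6% to 28.7%.

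**Figure D3:**
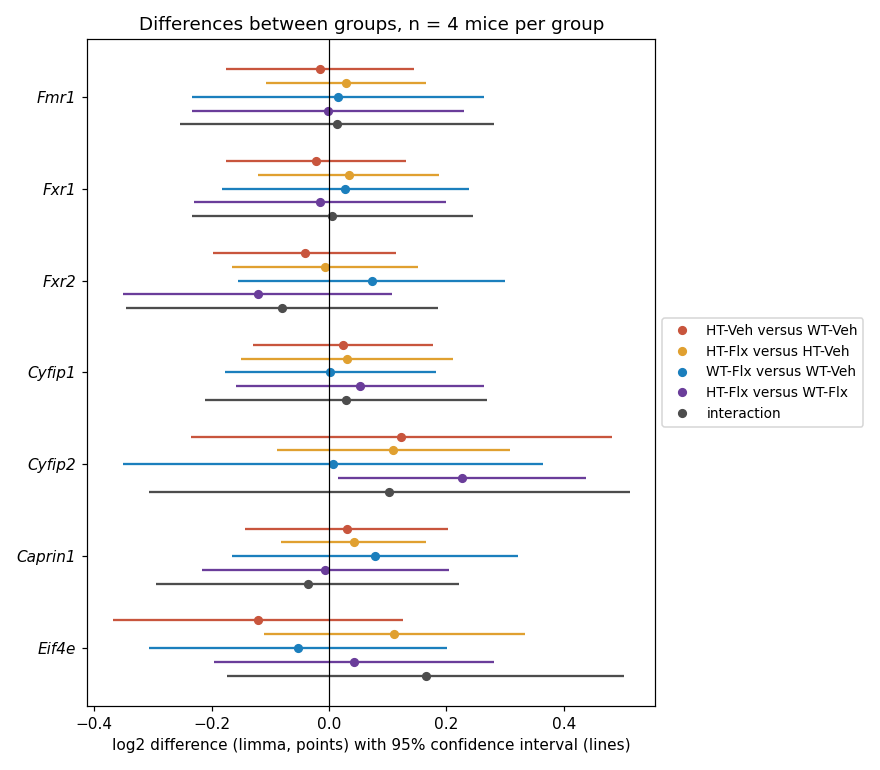
Log2 differences (horizontal axis, limma on log2(value + 1)) of the 7 members (vertical axis) in 4 pairwise comparisons and the interaction. Points are estimates and lines 95% confidence intervals. All intervals include 0 except that of Cyfip2 in HT-Flx against WT-Flx, at 0.23 with an adjusted p of 0.454, and the widest belong to Cyfip2, Eif4e and the interaction.

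In the wider pathways no gene passed the adjusted threshold either. Of 8 genes of the WAVE complex and Rac1, which act with the CYFIP proteins on actin, 0 passed the adjusted threshold in any comparison. In HT-Veh against WT-Veh their median difference was 0.14, against 0.0062 over all genes. There 2 of 8, or 25.0%, had an unadjusted limma p under 0.05, both higher in HT-Veh, against 4.88% of all genes. In HT-Flx against WT-Flx the median was 0.020, and 0 of 8 had such a p. Over both treatments their median genotype difference was 0.045, against 0.0044 over all genes. In that fit 2 of 8, or 25.0%, had an unadjusted limma p under 0.05, both higher in HT, where the share over all genes was 11.7%. The smallest p was that of Nckap1, a WAVE subunit that binds CYFIP directly, at 14893 ± 312 in HT-Veh against 13117 ± 1077 in WT-Veh and at 14866 ± 1108 in HT-Flx against 14062 ± 991 in WT-Flx (SD, n = 4), with a genotype difference of 0.13 (limma, adjusted p = 0.394). Of 14 genes of cap binding and translation initiation, 0 passed, 2 had an unadjusted p under 0.05 (1 in each direction), or 14.3%, close to the 11.7% of all genes, and the median was 0.028. Mknk2, a kinase that phosphorylates eIF4E, was 1092 ± 28.2 in WT-Veh and 1161 ± 157 in HT-Veh, and 994 ± 45.0 in WT-Flx and 1264 ± 157 in HT-Flx. Its genotype difference was 0.21 (limma, adjusted p = 0.317). Of 18 RNA granule genes and FMRP complex partners, 0 passed, 3 had an unadjusted p under 0.05 (2 higher and 1 lower in HT), or 16.7%, and the median was 0.050. Ybx1, which encodes a messenger RNA packaging protein, was 2488 ± 121 in HT-Veh against 2684 ± 417 in WT-Veh and 2503 ± 171 in HT-Flx against 3028 ± 400 in WT-Flx, with a genotype difference of -0.18 (limma, adjusted p = 0.389). The bulb markers had a median genotype difference of -1.49 in the same fit, and their part in these values was not tested.

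Inside groups, the covariation of members from mouse to mouse did not pass the test for any pair. On log2 values with group means removed, the largest values included those of Fmr1 with its paralog Fxr2 (r = -0.78, rho = -0.64), with Caprin1 (r = 0.77, rho = 0.64) and with Cyfip2 (r = 0.71, rho = 0.75). Fxr2 had r = -0.72 with Caprin1 (rho = -0.58) and r = -0.64 with Cyfip2 (rho = -0.63), each over 16 mice. Of the 21 pairs, 0 passed the adjusted threshold (2-sided permutation test within groups, Benjamini-Hochberg over 21 pairs). The smallest adjusted p-values for r were 0.0519 for Fxr2 and Cyfip2 (raw permutation p = 0.00247), 0.0556 for Fmr1 and Fxr2 (raw p = 0.00729) and 0.0556 for Fmr1 and Cyfip2 (raw p = 0.00794). For Fmr1 and Caprin1 and for Fxr2 and Caprin1 the adjusted permutation p was 0.0950, from raw values of 0.0219 and 0.0226. By rank, the adjusted permutation p was 0.0825 for Fmr1 and Cyfip2 (raw p = 0.00786) and for Fxr2 and Cyfip2 (raw p = 0.00512), 0.165 for Fmr1 with Fxr2 and with Caprin1 (raw p = 0.0314 and 0.0288) and 0.168 for Fxr2 and Caprin1 (raw p = 0.0401). Cyfip1 had r from -0.20 to 0.27 against the other members.

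The values changed with the mice included, and not all in 1 direction. Without the mice farthest from the median of Fmr1, WT-Flx replicate 1 and WT-Veh replicate 1, r was -0.54 for Fmr1 and Fxr2, 0.64 for Fmr1 and Cyfip2 and 0.41 for Fmr1 and Caprin1. Without WT-Flx replicate 1 and HT-Flx replicate 2, the mice farthest from the median of Fxr2, it was -0.74 for Fxr2 and Cyfip2 and -0.58 for Fxr2 and Caprin1. Among the 11 mice with low bulb markers, r was -0.10 for Fmr1 and Fxr2, -0.033 for Fmr1 and Cyfip2 and 0.39 for Fmr1 and Caprin1. So few mice cannot show that the pattern around Fmr1 is absent, and WT-Flx, with 1 mouse there, adds no deviation. For Fxr2 and Caprin1 r was -0.17 in that set. Other pairs had larger values there than in all mice, with -0.73 for Fxr2 and Cyfip2 (permutation p = 0.121), 0.85 for Cyfip2 and Eif4e (permutation p = 0.0335, against r = 0.43 in all mice) and -0.78 for Fmr1 and Cyfip1 (permutation p = 0.0875, against r = 0.012). Of the 21 pairs, 0 passed the adjusted threshold in the 11 mice.

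**Figure D4:**
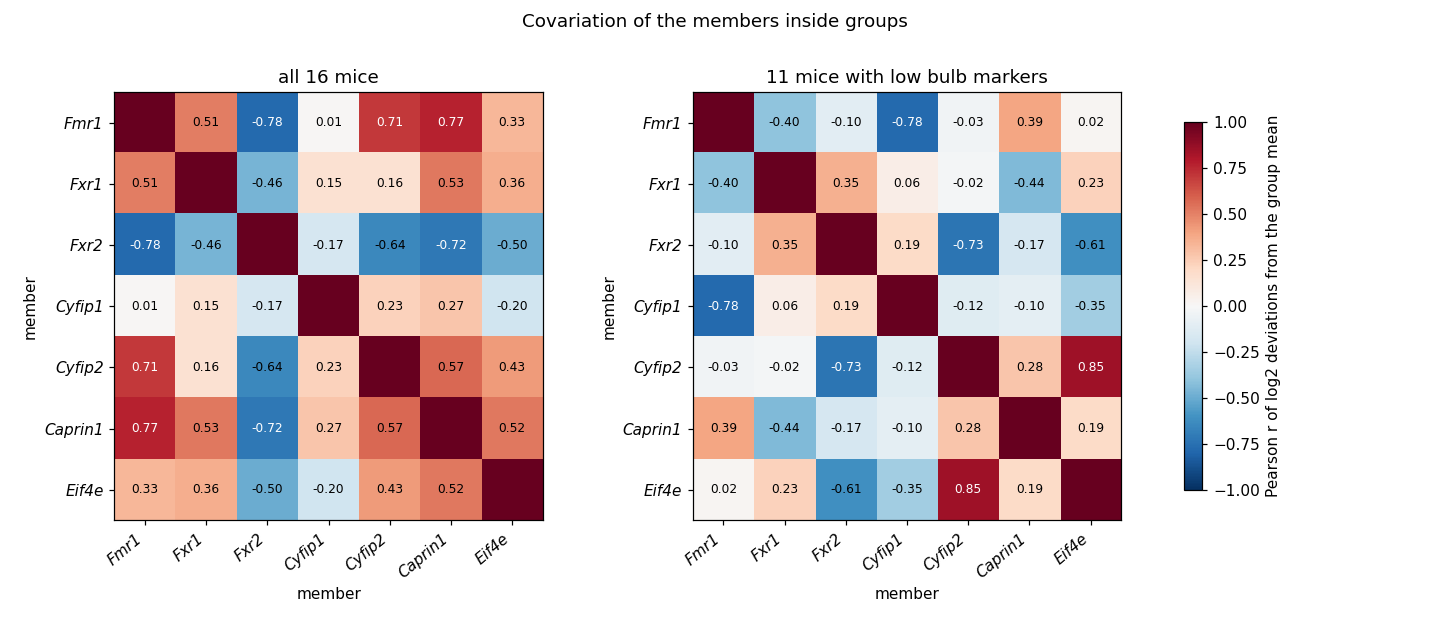
Pearson r of log2 deviations from the group mean for each pair of members (both axes), in all 16 mice (left) and in the 11 mice with low olfactory bulb markers (right). On the left Fxr2 is negative with every other member, down to -0.78 with Fmr1, and on the right the value for that pair is -0.10 and that of Cyfip2 and Eif4e is 0.85.

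Values of this size were common in the table. With Fmr1, 22.8% of 12542 other genes with a mean of at least 100 had r of 0.5 or more and 23.3% had -0.5 or less. The total of both was 46.2% for Fmr1, 44.6% for Cyfip2, 43.1% for Caprin1, 40.7% for Fxr2, 25.1% for Fxr1, 15.8% for Eif4e and 6.61% for Cyfip1. The genes on the positive and negative sides differed in transcript length and composition. Those with r of 0.5 or more with Fmr1 had a median longest coding transcript of 5682 bases and a GC content of 46.1%, and those with -0.5 or less had 1938 bases and 54.3%, against 3414 bases and 50.2% overall (95.9% of genes had a coding transcript). For Fxr2 the order was the opposite, with 1784 bases and 54.5% on the positive side and 5732 bases and 46.1% on the negative side. The members fall on this scale as follows. The Fmr1 transcript has 4409 bases and 39.2% GC, that of Caprin1 6169 bases and 42.0% and that of Cyfip2 6659 bases and 51.8%, and that of Fxr2 2951 bases and 58.5%, the highest GC content of the 7. Those of Fxr1 (3014 bases, 39.4%), Cyfip1 (6440 bases, 46.1%) and Eif4e (4991 bases, 40.5%) complete the list. Fmr1, Caprin1, Eif4e and Cyfip1 are longer than the overall median and below it in GC, and Fxr2 is shorter and above it. Cyfip2 is longer and above it in GC, and Fxr1 is shorter and below it. The r with Fmr1 was 0.77 for Caprin1, 0.71 for Cyfip2, 0.51 for Fxr1, 0.33 for Eif4e, 0.012 for Cyfip1 and -0.78 for Fxr2. The part of transcript length and composition in the covariation was not tested.

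**Figure D5:**
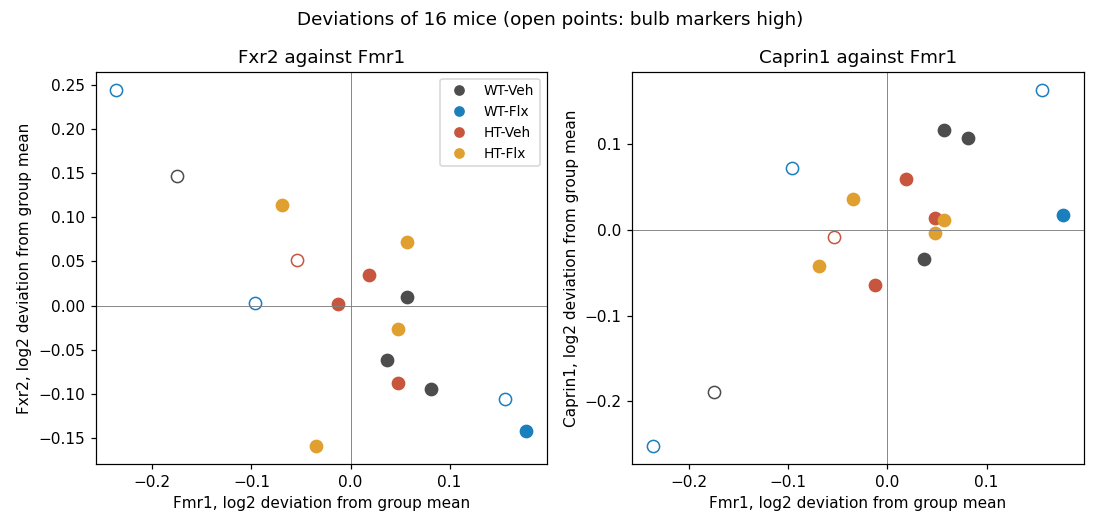
Log2 deviations from the group mean of Fxr2 (left) and Caprin1 (right) against those of Fmr1 in 16 mice, coloured by group, with open points for the 5 bulb-rich mice. The points with the least Fmr1, WT-Flx replicate 1 and WT-Veh replicate 1, have the most Fxr2 and the least Caprin1, and r is -0.78 on the left and 0.77 on the right.

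The genes most like each member over the 16 mice, with group means removed, were named by r alone and have no test. For Fmr1 they were Ubxn2a (r = 0.96) and Usp45 (0.96), for Fxr1 Atad2b (0.89) and Rbm12b2 (0.88), and for Fxr2 Wdr74 (0.94) and AC115631.1 (0.93). For Cyfip1 they were Paxip1 (0.86) and St8sia6 (0.81), and for Cyfip2 Asap1 (0.98) and Gas7 (0.98). For Caprin1 they were Naa15 (0.96) and Bclaf1 (0.96), and for Eif4e 2410131K14Rik (0.89) and St8sia3 (0.87). None of these 14 genes is itself a member. All correlations are over the same 16 samples, which share the bulb gradient described above.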

How the data were processed

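RNA from the medial prefrontal cortex of 16 mice was sequenced by the authors as stranded poly-A libraries and quantified with Salmon 1.1.0 on GRCm38, and gene values were normalized in DESeq2 1.30.1 (R 4.1.1), per the submitters' processing notes. The deposited signal is a normalized read count per gene. It was not whole and whole reads could not be recovered, so no count model was run. At most 24.4% of the low values of a sample fell within 0.02 of a whole multiple of the best step tried. Groups and replicate numbers came from sample titles. Of 18424 genes, 18411 matched a GENCODE symbol. Differences were tested with limma 3.58.1 (R 4.3.3, intensity trend, two-sided) on log2(value + 1) over genes with at least 10 in at least 4 samples of the fit, adjusted by Benjamini-Hochberg over all genes tested, threshold 0.05. Pairwise fits used the 8 mice compared, and the interaction and averaged effects all 16. Pairs of members were tested by 100000 shuffles within groups (numpy 2.4.6). The scripts were tested on simulated data. Replicate numbers belong to different mice, and the replicate block was an alternative. Named were the members, Arid1b, the gene with the smallest genotype p of each of 3 pathway lists (none passed), and the 2 genes closest to each member. Members and lists were chosen with earlier results of these data known. A fit of all 4 groups with the bulb score, the covariation among bulb-poor mice and levels per exonic base were added after seeing the data.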

Additional observations from a re-analysis of the deposited data

Results flagged for a closer look

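Of 28 groups of 4 mice examined, 7 members in 4 groups each, 1 held a mouse far from the other 3. Cyfip2 in WT-Veh replicate 1 was 20235, against 32078 to 32882 in the other WT-Veh mice, a gap of 0.936 of the group's range where 0.829 is the 95% critical value of Dixon's test. Chance alone flags about 1 in 20 groups. The same mouse had the highest bulb score, 9.79, and an Eomes level of 899, against 1.75 to 14.8 in the other WT-Veh mice. The part of bulb tissue in its Cyfip2 value was not tested.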

How the results depend on the processing

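No member passed the adjusted threshold in any of 1057 alternative member fits, where the smallest adjusted p was 0.282 (Cyfip2 in HT-Flx against WT-Flx without WT-Flx replicate 3). In 110 of these fits the sign turned, always of a difference that had not passed. Without the bulb-rich mice, log2 differences that turned were Caprin1 -0.030 in HT-Veh against WT-Veh, Fxr2 0.010 and Cyfip1 -0.0057 in HT-Flx against HT-Veh, Fxr2 -0.020, Cyfip1 -0.022 and Cyfip2 -0.015 in WT-Flx against WT-Veh, Fxr2 0.020 in HT-Flx against WT-Flx, Fmr1 -0.12, Fxr1 -0.053, Fxr2 0.030 and Caprin1 0.0062 for the interaction, Fxr2 0.0052 and Caprin1 -0.027 for genotype, and Fxr2 -0.00497, Cyfip1 -0.014 and Eif4e -0.044 for fluoxetine. The bulb score as a covariate turned Cyfip1 (-0.010) in HT-Flx against HT-Veh, Caprin1 (0.078) in HT-Flx against WT-Flx, Fmr1 (-0.080), Cyfip1 (-0.0026) and Cyfip2 (-0.15) for the interaction, and Caprin1 (-0.020) for genotype. With all 4 groups in that fit, Fmr1 (-0.0013) and Fxr2 (0.013) turned in HT-Flx against HT-Veh, and Cyfip2 (-0.071) in HT-Flx against WT-Flx. Quantile normalization turned Cyfip2 (-0.044) in WT-Flx against WT-Veh, Fmr1 (-0.014) and Fxr1 (-0.011) for the interaction and Caprin1 (-0.031) for genotype. A common upper quartile turned Fmr1 (-0.0090) and Fxr1 (-0.017) for the interaction. The cause was not tested.

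Leaving out 1 mouse at a time, differences that turned in at least 1 such fit ranged as follows. In HT-Veh against WT-Veh, Fmr1 ranged from -0.074 to 0.012, Fxr1 from -0.057 to 0.0099, Fxr2 from -0.073 to 0.0072, Cyfip1 from -0.0024 to 0.062, Cyfip2 from -0.049 to 0.21 and Caprin1 from -0.033 to 0.069. In HT-Flx against HT-Veh, Fxr2 ranged from -0.045 to 0.046 and Cyfip1 from -0.024 to 0.088. In WT-Flx against WT-Veh, Fmr1 ranged from -0.044 to 0.094, Fxr1 from -0.010 to 0.10, Fxr2 from -0.0086 to 0.12, Cyfip1 from -0.036 to 0.039, Cyfip2 from -0.17 to 0.068 and Eif4e from -0.14 to 0.017. In HT-Flx against WT-Flx, Fmr1 ranged from -0.081 to 0.057, Fxr1 from -0.090 to 0.022, Cyfip1 from -0.0013 to 0.11, Caprin1 from -0.090 to 0.048 and Eif4e from -0.021 to 0.11. For the interaction, Fmr1 ranged from -0.065 to 0.072, Fxr1 from -0.069 to 0.044, Fxr2 from -0.13 to 0.0017, Cyfip1 from -0.026 to 0.086 and Caprin1 from -0.12 to 0.026. For genotype, Fmr1 ranged from -0.048 to 0.021, Fxr1 from -0.056 to 0.00022 and Caprin1 from -0.030 to 0.039. For fluoxetine, Fmr1 ranged from -0.0077 to 0.061, Fxr2 from -0.0078 to 0.060, Cyfip1 from -0.011 to 0.045, Cyfip2 from -0.028 to 0.089 and Eif4e from -0.013 to 0.064.

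The count of covarying pairs, 0 of 21, became 1 under quantile normalization (Fxr2 and Cyfip2, r = -0.78, adjusted permutation p = 0.0262), 1 with the bulb score regressed out (Cyfip2 and Eif4e, r = 0.80, adjusted permutation p = 0.0216) and 1 with the replicate block (Fmr1 and Caprin1, r = 0.80, adjusted permutation p = 0.00924). It was 0 to 3 when 1 mouse was left out, with 3 pairs without HT-Flx replicate 1 or HT-Flx replicate 2, and 1 pair without WT-Flx replicate 1, WT-Flx replicate 4 or HT-Veh replicate 2. In the 11 mice with low bulb markers, r of Fmr1 and Cyfip2 turned to -0.033. The replicate block changed no member's call, with 0 of 7 in each comparison. Mice of the same number deviated with a mean correlation of 0.011 to 0.13 between groups, and 7 of 16 mice were closest to one of their own number. No share by chance was computed, so these values do not decide whether the numbers pair the mice. The main fits had no block, since the methods of the study name none. Over all genes, the block changed how many had an unadjusted limma p under 0.05. The number rose from 707 to 1237 in WT-Flx against WT-Veh and from 2054 to 2579 for genotype. It fell from 822 to 741 in HT-Veh against WT-Veh.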
